A study of Bos taurus with 12 samples.

Results

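The matrix metalloproteinases (MMP), the ADAM and ADAMTS proteinases, the ADAMTS-like proteins (ADAMTSL) and the tissue inhibitors of metalloproteinases (TIMP) were examined in the endometrium of cows on Day 15 of the estrous cycle. Members were all array probes, controls left out, whose symbol or full gene name in the array annotation was MMP, TIMP, ADAM, ADAMTS or ADAMTSL followed by a number, or ADAMDEC1. This gave 176 probes for 70 transcripts of 65 genes, out of 26323 transcripts on the array. The members were 18 MMP genes, 4 TIMP genes, 20 ADAM genes, ADAMDEC1, 18 ADAMTS genes and 4 ADAMTSL genes.

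Biopsies of intercaruncular endometrium were taken in the horn next to the corpus luteum after synchronization of the cycle, and Cy-3 labelled RNA was hybridized to a custom bovine array from Agilent, with a separate array for each animal. Old females (OF, n = 4) were nulliparous Holsteins aged 13 to 14 years, and young females (YF, n = 4) were primiparous Holsteins aged 4 to 5 years, so that age and parity cannot be told apart. All OF and YF were somatic clones of a single donor cow, which leaves 1 nuclear genotype behind both groups. A group labelled Contemporary held 4 cows sampled on the same day, whose age, parity and genotype are not given in the sources used here, and the labels state that the authors excluded animal 1111 for a divergent phenotype, so 3 were compared. The labels name no treatment other than synchronization.

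Metalloproteinases are zinc enzymes that cut proteins outside the cell. MMPs are made as inactive precursors and together degrade most components of the extracellular matrix, ADAMs sit in the cell membrane and shed the outer part of other membrane proteins, and ADAMTS enzymes are secreted and cut proteoglycans, procollagens or von Willebrand factor. TIMPs bind the active site of these enzymes and block it. In the endometrium these proteins take part in the remodelling of the stroma and of the vessels over the cycle and around implantation.

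A level here is the log2 of the processed spot intensity minus the log2 of the 75th percentile of its array, averaged over the probes of a transcript, so that 0 is that percentile and negative levels are dimmer. A level depends on the probe, and levels of different genes were therefore not set against each other. Between 71.6% and 74.9% of the probes of an array were well above background. Among the members, 39 of 70 transcripts were well above background on all 12 arrays, 24 on some and 7 on none. The 7 were ADAM2, ADAM3A, ADAMTS16, ADAMTSL1, MMP8, MMP27 and 1 of the 3 transcripts of ADAMTSL3. The endometrial transcription factors HOXA10 and HOXA11 and the receptors PGR and ESR1 were well above background on all 12 arrays, and FOXL2, the fifth endometrial marker, on 8.

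Animals differed in tissue markers before any gene of interest was considered. The mean deviation of 17 smooth muscle markers from their average over the 12 animals was 3.44 in OF 2258 and 1.97 in OF 0234 on the log2 scale, and between -1.14 and 0.03 in every other OF, YF and Contemporary animal. The epithelial markers (5 genes) lay at -2.02 in OF 2258 and at -1.24 in YF 1069, against -0.12 to 0.81 in the other animals. The stromal markers (7 genes) were highest in YF 1069, at 0.64. Of the 4 mast cell markers, MS4A2 was well above background on 0 arrays and was left out of the mean. The mean of the other 3 lay between -0.45 and -0.14 in OF and between 0.088 and 0.58 in YF, so that every OF lay below every YF. It lay between -0.65 and 0.75 in the 3 Contemporary cows. Of these 3 genes, only CPA3 had every OF below every YF. HDC overlapped through OF 2258 (-3.86). KIT overlapped too, at -1.35, -1.06, -1.89 and -1.89 in OF and -1.64, -2.04, -1.23 and -2.39 in YF. The part of the marker lists in the differences between OF and YF was not tested. In a biopsy, fewer cells of a type and less RNA per cell cannot be told apart. Values without OF 2258 are given below for some of the results, not for all.

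The members lie on many chromosomes, with several groups of neighbours. Coordinates are those of the array annotation, for the assembly UMD3.1. On chromosome 15, between 5912037 and 6400322, lay MMP13, MMP3, both MMP1 transcripts, MMP8, MMP27, MMP20 and MMP7, of which only MMP7 and 1 MMP1 transcript were well above background on all 12 arrays. On chromosome 27, between 33816038 and 34625508, lay ADAM9, ADAM32, ADAM2, ADAM3A and ADAM18, of which only ADAM9 was. ADAM28, ADAMDEC1 and ADAM7 lay together on chromosome 8 (72403760 to 72596739), and ADAMTS5 and ADAMTS1 on chromosome 1 (8811792 to 8963815).

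The probes behind the differences described below are printed so that a reader can see what was measured. Each member transcript had 2 different probe sequences of 60 bases, which overlapped in 14 of the 70 transcripts. The sequences are those of the array files, 5′ to 3′, and the files do not say whether a probe lies in coding or untranslated sequence. Whole probes are shown for ADAMDEC1, ADAMTS13 and ADAMTS5, where at least 1 reading frame of the probe held no stop codon, and 30 bases are shown for ADAMTS6 and MMP19. Capitals mark the 30 bases that both probes of MMP19 share.
ADAMDEC1, probe 1: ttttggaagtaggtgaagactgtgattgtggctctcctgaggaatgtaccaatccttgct
ADAMTS13, probe 1: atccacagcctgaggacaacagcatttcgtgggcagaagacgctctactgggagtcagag
ADAMTS13, probe 2: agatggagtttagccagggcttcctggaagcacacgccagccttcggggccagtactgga
ADAMTS5, probe 1: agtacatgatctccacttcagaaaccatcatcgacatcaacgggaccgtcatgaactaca
ADAMTS6, probe 1, bases 1 to 30: aacttctgtgaagtgggatttattgatcca
ADAMTS6, probe 2, bases 1 to 30: acaacgcagggagacttgcttactgtggaa
MMP19, bases shared by both probes: TCTGAAAAATAAGGTTAACACCAATCCCGC

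OF and YF were compared to ask whether the endometrium of old females differs from that of young females in these genes. In limma, 0 of the 42 member transcripts tested passed a Benjamini-Hochberg adjusted p of 0.05, where 0% of all 19755 transcripts tested passed it. At an unadjusted p of 0.05, 1 member (ADAMDEC1) was called, and it was lower in OF. That is 2.38% of the members against 2.41% of all transcripts (1.44% higher and 0.977% lower in OF). The groups did not overlap for 1 member, with every OF above every YF (ADAMTS6), and for 0 members in the other direction, against 0.942% and 0.597% of all transcripts (1.54% in all). The median log2 difference (OF minus YF) was -0.03 over the members and 0.01 over all transcripts, with 18 members higher and 24 lower, and 27 of the 42 differences were smaller than their own standard error. The limma counts for the members are therefore near the background of the array. The study's own method, fold change rank ordering statistics (FCROS), makes calls from ranks without a test of the spread within groups. It called 8 of 70 member transcripts, 4 higher and 4 lower in OF, which is 11.4% against 4.94% of all transcripts (2.88% higher and 2.06% lower). Of these 8, only 4 were bright enough to be tested by limma, and those were ADAMTS6, ADAMDEC1, ADAMTS13 and MMP19.

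**Figure D1:**
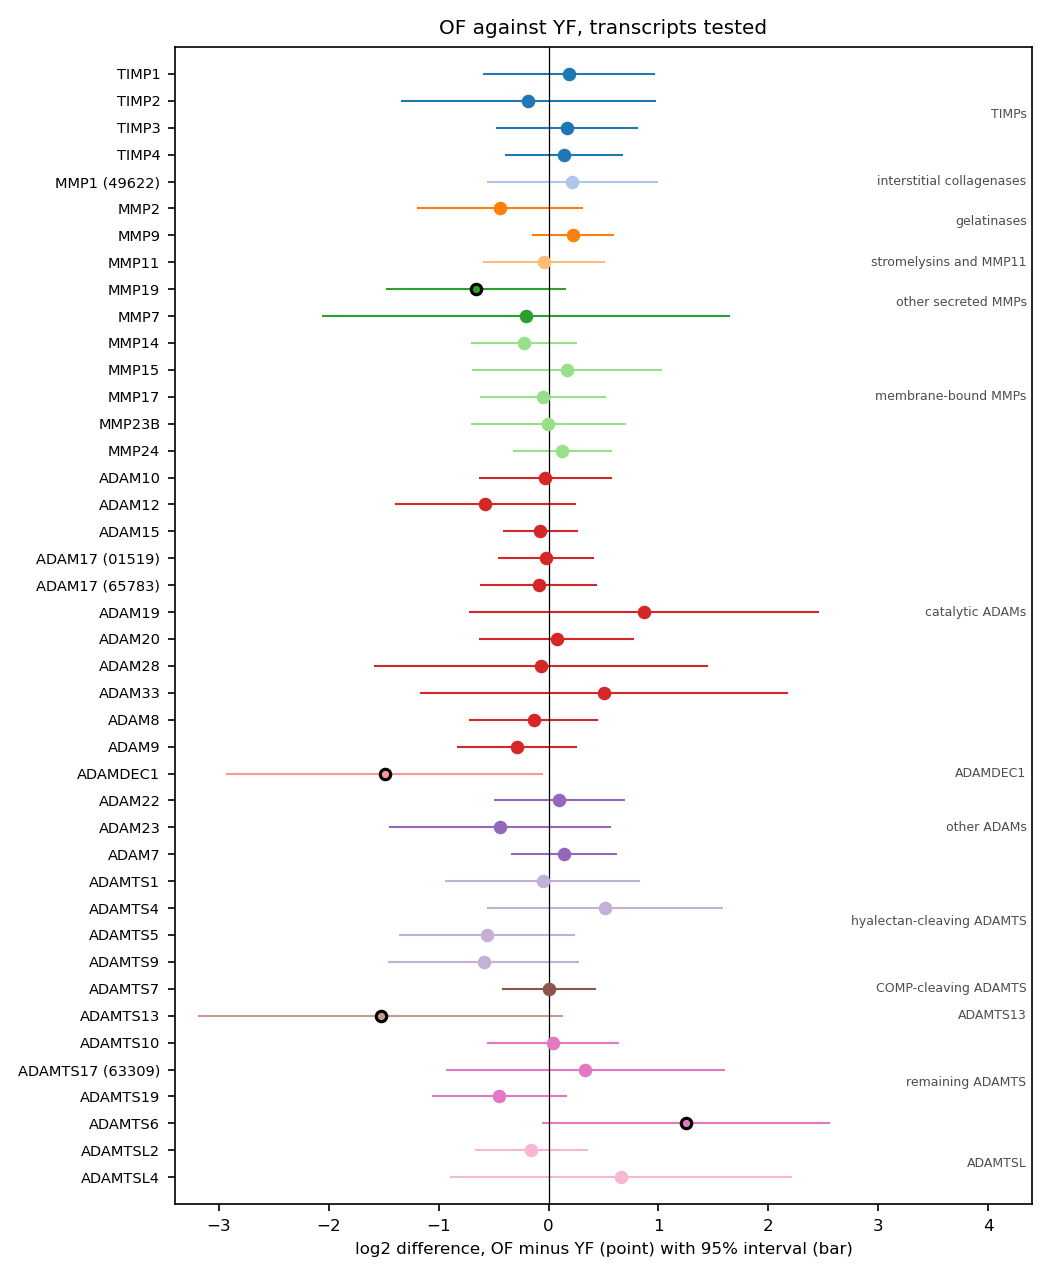
Log2 difference (OF minus YF) of the 42 member transcripts tested, with its 95% interval from limma, coloured and labelled by class at the right. Points with a black ring were called by FCROS. The intervals of all members but ADAMDEC1 include 0, and ADAMTS13, ADAMDEC1 and ADAMTS6 lie farthest from 0.

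The 4 TIMPs were well above background on every array. TIMP1 levels were 2.13, 1.64, 1.34 and 0.89 in YF, 1.16, 1.89, 1.32 and 2.38 in OF and 1.94, 1.46 and 1.69 in Contemporary cows. TIMP2, which also helps to activate MMP2 at the cell surface, had levels of 4.77, 6.24, 6.59 and 6.19 in YF, 6.22, 5.71, 6.55 and 4.59 in OF and 5.91, 5.09 and 5.97 in Contemporary cows. Of all 12 animals, YF 1069 and OF 2258, the animals with the lowest epithelial markers, had the lowest TIMP2 levels. TIMP3, which binds to the matrix and inhibits several ADAMs and ADAMTSs, had levels of 0.47, -0.04, -0.03 and -0.23 in YF, 0.08, 0.27, -0.40 and 0.91 in OF and 0.11, 0.03 and 0.34 in Contemporary cows. TIMP4 levels were -0.79, -0.70, -1.33 and -0.63 in YF, -0.41, -0.38, -1.10 and -0.97 in OF and -1.29, -0.73 and -1.22 in Contemporary cows. The groups overlapped for every TIMP. The differences between OF and YF were 0.19 ± 0.34 for TIMP1, -0.18 ± 0.51 for TIMP2, 0.17 ± 0.28 for TIMP3 and 0.14 ± 0.23 for TIMP4 (log2, limma SE, n = 4 and 4). The 95% interval was widest for TIMP2, from -1.34 to 0.98, and narrowest for TIMP4, from -0.39 to 0.68, and a level 1.5-fold higher in OF lies inside all 4 intervals. Without OF 2258 the differences were -0.044 for TIMP1, 0.21 for TIMP2, -0.059 for TIMP3 and 0.23 for TIMP4.

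**Figure D2:**
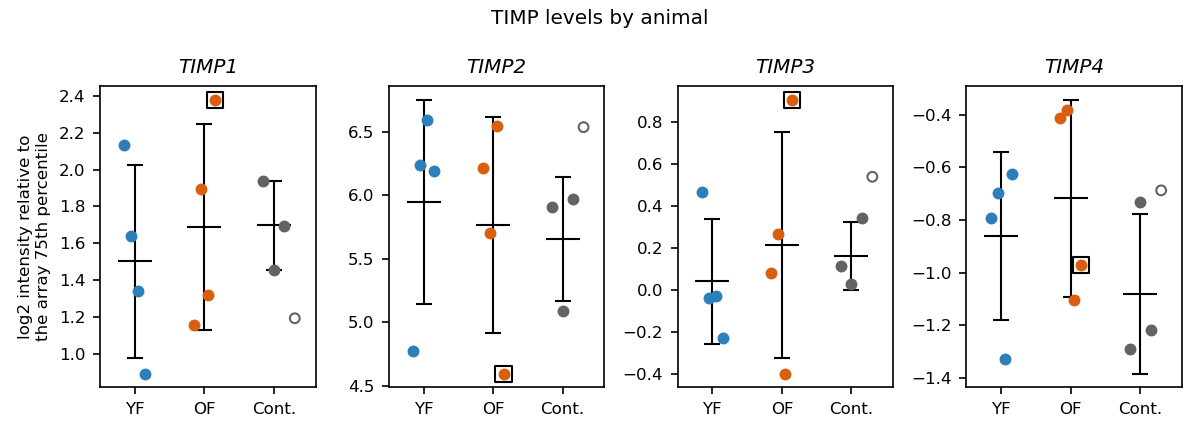
Levels of TIMP1 to TIMP4 (y axis, log2 intensity relative to the 75th percentile of the array) in each YF, OF and Contemporary (Cont.) animal, with the group mean and SD as bars. A square marks OF 2258, and the open circle is Contemporary 1111, left out of the means. The 3 groups overlap in each panel.

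Among the secreted MMPs, the collagenase MMP1, which cuts fibrillar collagen, was measured by 2 transcripts annotated next to each other on chromosome 15. Only that with the brighter probes was tested, and its levels were -3.92, -5.04, -4.50 and -4.97 in YF, -4.78, -4.29, -4.84 and -3.65 in OF and -4.37, -5.40 and -4.89 in Contemporary cows. MMP8 and MMP13, the other collagenases, were well above background on 0 and 5 of the 12 arrays. The gelatinases MMP2 and MMP9 cut denatured collagen and basement membrane collagen. MMP2 levels were 2.92, 2.28, 1.96 and 1.43 in YF, 1.29, 2.03, 1.47 and 2.06 in OF and between 2.06 and 2.42 in the 3 Contemporary cows. One YF lay above all other animals, and the groups overlapped. The OF minus YF difference was -0.44 ± 0.33 for MMP2 (-0.18 without YF 1069) and 0.23 ± 0.16 for MMP9 (0.14 without YF 1127). MMP9 spread little, with levels between -2.38 and -1.67 in all 12 animals. MMP11, which is found in stroma during remodelling, spread between -1.71 and -0.71 over the 12 animals, with means of -1.23 ± 0.29 in YF and -1.27 ± 0.43 in OF (SD). The stromelysin MMP3 was well above background on 1 array only.

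MMP19, a secreted MMP of basement membranes, had levels of 2.51, 1.37, 1.11 and 0.95 in YF and 0.56, 1.33, 0.92 and 0.49 in OF. Of the 4 OF, 3 lay below every YF, and OF 0234 lay between YF animals. FCROS called it lower in OF with a ratio of 0.589, while limma gave a log2 difference of -0.66 ± 0.36 (adjusted p 0.9996) and the exact two-sided permutation test over animals a p of 0.114, unadjusted. The value of YF 1069 weighed in this difference, which was -0.32 without that animal. MMP7 (matrilysin), an MMP of glandular epithelium, was the most variable of the secreted MMPs, with levels from -3.85 to -1.66 in YF, from -5.29 to -1.29 in OF and from -5.02 to 0.01 in the 3 Contemporary cows. The standard error of its OF minus YF difference was 0.81 on the log2 scale.

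The membrane-bound MMPs, whose substrates lie next to the cell, included MMP14, the activator of pro-MMP2. MMP14 levels were -1.71, -2.16, -2.50 and -2.27 in YF and -2.08, -2.26, -2.70 and -2.50 in OF, a difference of -0.22 ± 0.21 that was -0.073 without YF 1069. MMP23B levels were 0.97, 1.79, 1.76 and 1.61 in YF and 1.93, 1.27, 2.06 and 0.86 in OF, with a mean of 1.53 in both groups. MMP15 levels were -0.30, 0.88, 1.22 and 0.45 in YF and 1.13, 0.41, 1.25 and 0.13 in OF. For MMP23B, OF 2258 and YF 1069 were the lowest of the 12 animals, and for MMP15 they were also the lowest. Of the 5 membrane-bound MMPs tested, 2 were higher and 3 lower in OF, between -0.22 and 0.17. MMP16 and MMP25 were too dim to be tested.

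Among the 11 catalytic ADAM genes measured here, 10 were tested, and of their 11 transcripts 3 were higher and 8 lower in OF, between -0.58 and 0.87. The sheddases ADAM10 and ADAM17, which release Notch fragments, cytokines and growth factors, were well above background on every array. ADAM10 levels were -0.48, -0.71, 0.02 and -0.35 in YF and 0.18, -0.23, -0.91 and -0.68 in OF, and the ADAM17 transcripts had group means that differed by less than 0.1. ADAM8, an ADAM of leukocytes, had levels of 0.52, 0.08, -0.11 and -0.76 in YF and -0.25, -0.09, -0.37 and -0.09 in OF, with an SD of 0.53 in YF and 0.14 in OF. ADAM12 levels were 0.56, -0.79, -0.53 and -1.07 in YF and -1.13, -0.91, -1.50 and -0.58 in OF, a difference of -0.58 ± 0.36 that was -0.24 without YF 1069.

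ADAM19 and ADAM33, membrane ADAMs known from mesenchymal cells, were widely spread in OF. ADAM19 levels were -0.57, -0.63, -0.75 and -1.94 in YF and -1.16, 0.41, -1.43 and 1.78 in OF. ADAM33 levels were -3.78, -4.51, -4.79 and -5.01 in YF and -5.70, -3.11, -5.04 and -2.21 in OF. In both genes OF 2258 was the highest of the 12 animals and OF 0234 the next, which is the order of the smooth muscle markers, and OF 0233 and OF 0245 lay among or below the YF. The difference between OF and YF was 0.87 ± 0.70 for ADAM19 and 0.50 ± 0.73 for ADAM33, and without OF 2258 it was 0.25 and -0.10. The part of smooth muscle tissue in these levels was not tested. Both genes were picked for description after their values were seen.

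ADAMDEC1 encodes a soluble, macrophage and dendritic cell related ADAM with a changed zinc site, and it is the only member at an unadjusted p of 0.05 between OF and YF. The gene lies on chromosome 8, 72498088 to 72516273. Levels were 0.31, -0.32, -0.69 and -1.23 in YF, -0.73, -1.20, -2.28 and -3.70 in OF and -0.72, 1.36 and -0.06 in Contemporary cows. Of the OF, 2 lay below every YF, and the other two lay within the YF range. The OF level was 2.81-fold lower on average, a log2 difference of -1.49 with a 95% interval from -2.93 to -0.05 (limma, unadjusted p 0.0440, adjusted p 0.9996). Both probes gave the same size, -1.51 and -1.47. The exact two-sided permutation test over animals gave p = 0.0857, unadjusted, where 0.0286 is the smallest p that 4 against 4 animals allow. Within slide 1 (1 OF and 2 YF) the difference was -1.77, within slide 2 (3 OF and 2 YF) it was -1.41, and with the slide as a block it was -1.54, with an unadjusted p of 0.0605 in limma, so that the call was lost. Without OF 2258 it was -0.92, and with each animal left out in turn the unadjusted p ranged from 0.0148 to 0.112. It was above 0.05 without OF 0245, OF 2258, YF 1069, YF 1070 or YF 1072. By RT-qPCR, the study reported significantly lower ADAMDEC1 in OF, in the animals of the arrays together with further OF and YF. The mean deviation of the macrophage markers (6 genes) was 0.036 in OF 2258, and it ranged from -0.35 to 0.036 in OF and from -0.27 to 0.11 in YF. This mean hides markers that went different ways. In OF 2258, CD68 (-1.60) was the highest and CD14 (-1.06) the lowest of the 12 animals. CD163 was well above background on 1 array only. The neighbouring ADAM28, an ADAM of lymphocytes and epithelia, had its lowest levels in OF 2258 (-5.87) and YF 1069 (-5.53), of which the latter had the highest ADAMDEC1 level of the 8 animals.

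**Figure D3:**
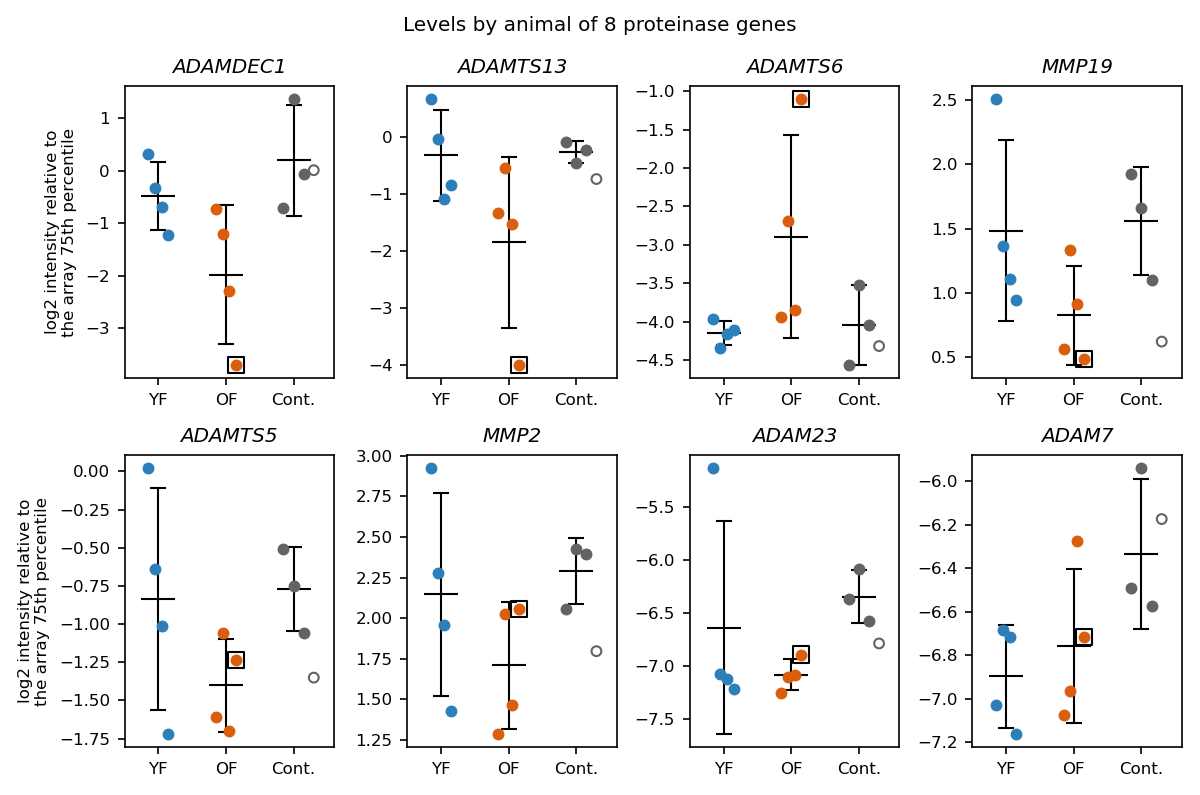
Levels (y axis, log2 intensity relative to the 75th percentile of the array) of 8 genes in each YF, OF and Contemporary (Cont.) animal, with group mean and SD. A square marks OF 2258 and the open circle Contemporary 1111, left out of the means. All 4 OF lie above all 4 YF for ADAMTS6, and the 3 Contemporary cows lie above all 4 OF for ADAMDEC1, ADAMTS13, ADAMTS5 and ADAM23.

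Of the ADAMs that lack a complete catalytic motif or are known from testis, 3 of 9 were bright enough to be tested. ADAM22, a neuronal receptor of the family, had levels of -4.09, -5.14, -5.12 and -5.06 in YF and -4.95, -4.83, -4.81 and -4.41 in OF. ADAM23, its close relative, had levels of -5.13, -7.08, -7.12 and -7.22 in YF and -7.25, -7.10, -7.08 and -6.89 in OF. YF 1069 stood apart from the other 3 YF in both genes. The testis ADAMs ADAM2 and ADAM3A were well above background on 0 arrays, and ADAM18, ADAM32 and ADAM1B on 1 array each.

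The hyalectan-cleaving ADAMTS enzymes degrade versican, aggrecan and related proteoglycans. ADAMTS1, which is induced by progesterone in the ovary, had levels of 5.11, 4.67, 4.23 and 4.10 in YF, 4.18, 4.02, 4.11 and 5.60 in OF and 5.61, 3.67 and 4.92 in Contemporary cows. OF 2258 stood above the other 3 OF, which lay close together. ADAMTS5, annotated next to it, followed another order. Its levels were 0.02, -0.64, -1.01 and -1.72 in YF and -1.61, -1.06, -1.70 and -1.24 in OF, a difference of -0.56 ± 0.35 that was -0.28 without YF 1069. ADAMTS9, which acts on versican and fibronectin, had levels of -1.52, -2.91, -2.80 and -3.18 in YF and -3.34, -2.73, -3.75 and -2.95 in OF, a difference of -0.59 ± 0.38 (-0.23 without YF 1069).

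ADAMTS8 was too dim for limma and was called by FCROS as higher in OF. Its levels were -7.46, -7.80, -7.91 and -8.09 in YF and -6.51, -6.33, -7.38 and -3.75 in OF. It was well above background in 3 OF and in 0 YF, so the order of the animals and the FCROS call rest on levels not well above background, and only a bound can be given. The mean over all OF was at least 1.48-fold higher by this bound. For each YF it took the higher of the gene's own level and the lowest level of any probe well above background on that array. OF 2258 (-3.75) raised the OF mean, and the bound was not computed without that animal. OF 2258 lay far above the other OF, FCROS still called the gene without it, and the 2 probes of ADAMTS8 overlap by 40 bases, so that they are not separate measurements.

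None of the 3 procollagen N-proteinases, which trim fibrillar procollagens before they assemble, could be tested by limma. ADAMTS2 levels were -5.68, -6.46, -6.16 and -5.86 in YF and -6.81, -7.21, -7.13 and -6.55 in OF. At least 1 of its probes was well above background on each YF array, though not the same probe on every array, and on no OF array. OF was at least 1.34-fold lower by the same bound. The FCROS call rests on OF levels not well above background. ADAMTS7, which cleaves the cartilage protein COMP, had levels between -5.82 and -5.11 over the 12 animals, with a mean of -5.38 in both groups.

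ADAMTS13, the protease that cuts von Willebrand factor, lies on chromosome 11, 104373528 to 104407288. Levels were 0.66, -0.03, -1.08 and -0.84 in YF, -1.33, -0.55, -1.53 and -4.01 in OF and -0.10, -0.46 and -0.24 in Contemporary cows. Of the OF, 3 lay below every YF, OF 0234 lay within their range, and OF 2258 stood far below the rest. The OF level was 2.89-fold lower on average, a log2 difference of -1.53 ± 0.73 with a 95% interval from -3.19 to 0.13 (limma, unadjusted p 0.0664, adjusted p 0.9996; exact permutation p 0.114). Both probes gave the same size, -1.54 and -1.52. Without OF 2258 the difference was -0.81, and within slides 1 and 2 it was -0.97 and -1.87.

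ADAMTS6, a protease of fibrillin microfibrils, lies on chromosome 20, 14008347 to 14285012. Levels were -3.96, -4.35, -4.16 and -4.11 in YF, -3.94, -2.68, -3.85 and -1.11 in OF and -4.56, -3.52 and -4.04 in Contemporary cows. It was the only tested member for which all OF lay above all YF, although the lowest OF exceeded the highest YF by little, and the groups overlapped with median centring and with normexp. The log2 difference was 1.25 ± 0.57 with a 95% interval from -0.06 to 2.56 (limma, unadjusted p 0.0590, adjusted p 0.9996; exact permutation p 0.0286). The FCROS ratio was 3.33. Without OF 2258 the log2 difference was 0.66 and the FCROS call was lost, within slide 1 the difference was 0.41 and within slide 2 it was 1.46. OF 2258 and OF 0234 were the highest of the 12 animals here too, as they were for the smooth muscle markers, whose part was not tested. ADAMTS19 levels were -0.49, -1.75, -1.58 and -1.31 in YF and -1.75, -1.53, -1.71 and -1.92 in OF, a difference of -0.45 ± 0.27 that was -0.18 without YF 1069.

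The ADAMTSL proteins resemble ADAMTS enzymes without the protease and bind to microfibrils. ADAMTSL4 levels were -0.17, -0.71, -1.04 and -1.84 in YF and -1.62, 0.09, -1.15 and 1.57 in OF, with OF 2258 and OF 0234 again above all other animals. Its OF minus YF difference was 0.66 ± 0.68, and 0.042 without OF 2258. A transcript of ADAMTSL3, well above background in OF 2258 and OF 0234 only, and ADAM11, well above background in 3 OF and 1 YF, were the remaining FCROS calls, both higher in OF. Without OF 2258, FCROS no longer called ADAMTS6, MMP19, ADAM11 and ADAMTSL3, and still called ADAMDEC1, ADAMTS13, ADAMTS2 and ADAMTS8, besides 5 members that it had not called with all animals.

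The spread between animals was larger for these genes than for the rest of the array. The median SD over the members was 0.41 in OF and 0.51 in YF, against 0.32 and 0.28 over all transcripts tested. In YF many members shared an order of the animals. YF 1069 was the highest of the 4 YF for 27 of 42 members (64.3%, against 37.5% of all transcripts) and YF 1127 for 2 (4.76%, against 21.6%). Among all 8 animals, YF 1069 was the highest for 16 members (38.1%, against 18.2% of all transcripts). These 16 included MMP2, MMP14, MMP17, MMP19, MMP24, ADAM8, ADAM9, ADAM12, ADAM22, ADAM23, ADAMTS5, ADAMTS9, ADAMTS10, ADAMTS13, ADAMTS19 and ADAMDEC1. The same animal had the highest stromal and the second lowest epithelial marker levels of the 12, whose part in the order was not tested. OF 2258 was the highest of the 8 for 10 members and the lowest for 10 (23.8% each), against 26.6% and 24.7% of all transcripts.

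**Figure D4:**
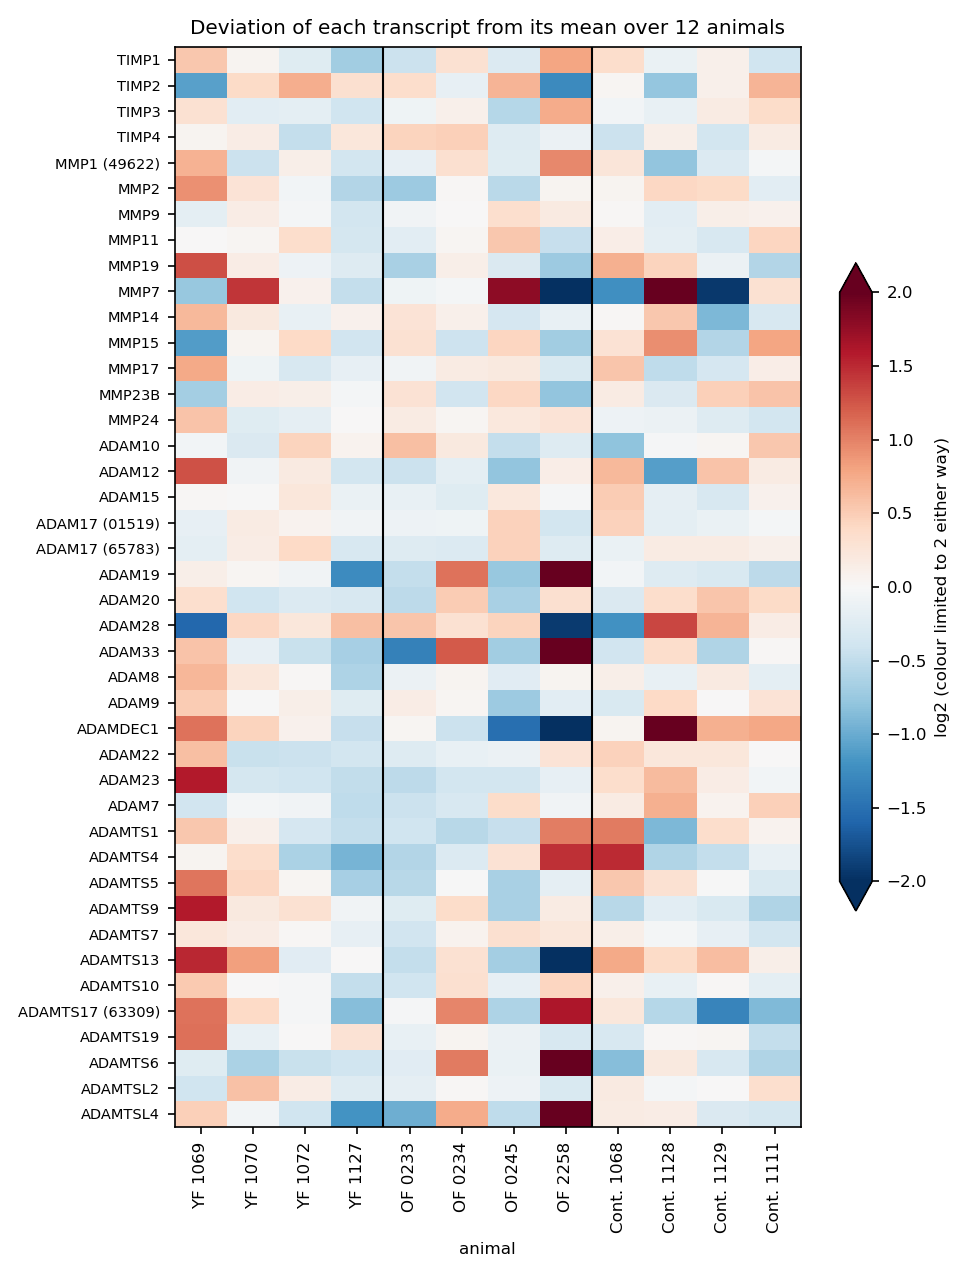
Deviation of each of the 42 tested transcripts (rows) from its mean over the 12 animals (columns, by group), on the log2 scale, red for higher and blue for lower. YF 1069 lies above the mean for 30 of the 42 transcripts, and the OF 2258 column holds strong red (ADAM19, ADAM33, ADAMTS6, ADAMTSL4) and strong blue (MMP7, ADAM28, ADAMDEC1, ADAMTS13).

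**Figure D5:**
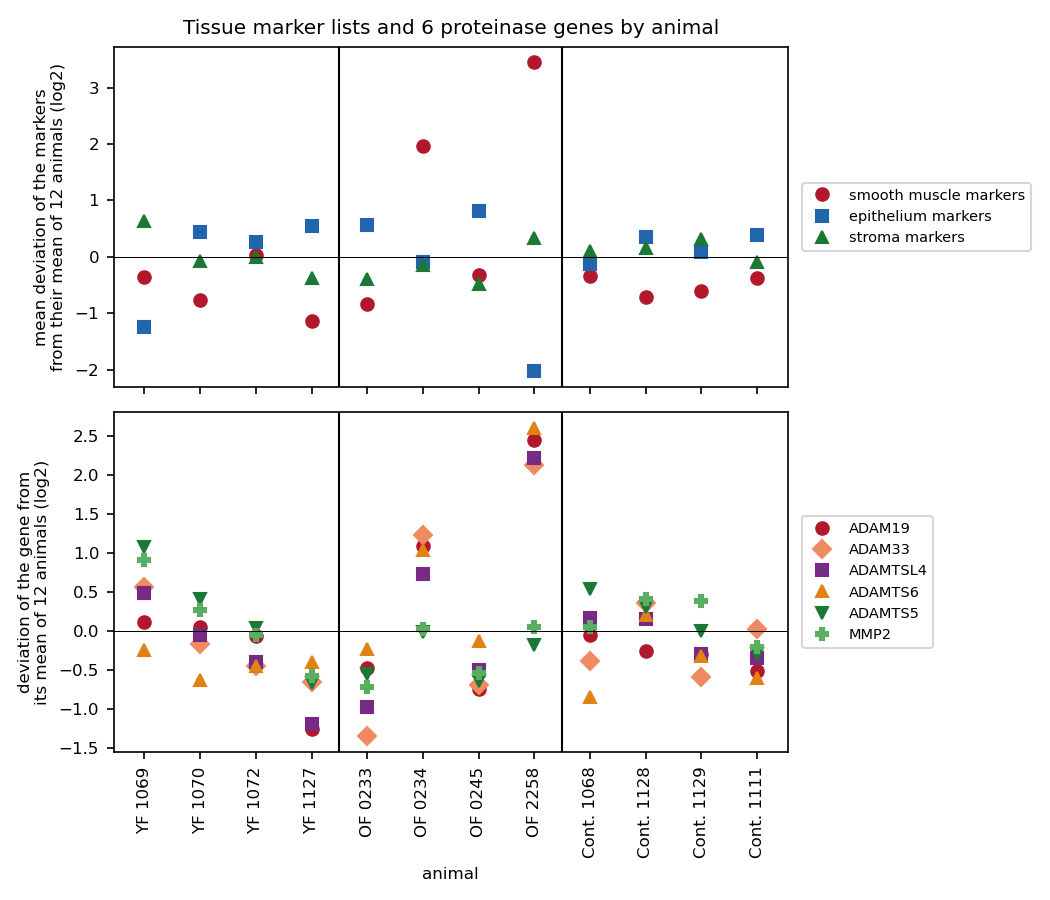
Above, mean deviation of the smooth muscle, epithelium and stroma markers from their average over the 12 animals (log2), by animal. Below, the deviation of 6 proteinase genes on the same scale. ADAM19, ADAM33, ADAMTSL4 and ADAMTS6 are highest in OF 2258 and OF 0234, the animals with the highest smooth muscle markers, and ADAMTS5 and MMP2 are highest in YF 1069, the animal with the highest stromal markers.

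The Contemporary cows (n = 3) were compared with OF and with YF to describe a further group of the same cycle day. Each group enters more than 1 comparison, so the comparisons are not independent. Against OF, limma passed 0 of 42 members at an adjusted p of 0.05 (0% of all 19914 transcripts tested) and 5 at an unadjusted p of 0.05, which is 11.9% against 4.58% of all transcripts. All 5 were higher in the Contemporary cows, where 2.59% of all transcripts were higher and 1.99% lower at that p. The 5 were ADAMDEC1, ADAM23, ADAMTS5, MMP19 and MMP2. All 3 Contemporary cows and 3 of the 4 OF were on slide 2. With the slide as a block, limma gave the same fit as slide 2 alone, which compares 3 with 3 animals. The unadjusted p was 0.0109 for ADAM23, but 0.0564 for ADAMDEC1, 0.0633 for ADAMTS5, 0.0536 for MMP19 and 0.108 for MMP2. Thus 4 of the 5 calls were lost. The differences were 0.74, 2.07, 0.53, 0.77 and 0.50 in that order, against 0.74, 2.17, 0.63, 0.74 and 0.58 with all 4 OF. This fit does not test a slide effect, because no compared Contemporary cow was on the other slide. Groups did not overlap for 4 members that were higher (ADAMDEC1, ADAM23, ADAMTS5 and ADAMTS13) and 1 that was lower (MMP24), against 2.86% and 2.92% of all transcripts (5.78% in all). The smallest exact p that 3 against 4 animals allow is 0.0571, and among the tested members it was reached by these 5 genes.

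ADAMDEC1 was 4.50-fold higher in Contemporary cows than in OF, a log2 difference of 2.17 ± 0.78 (limma, unadjusted p 0.0256, adjusted p 0.911), which was 1.60 without OF 2258. ADAMTS13 was 3.01-fold higher, a log2 difference of 1.59 ± 0.74 (unadjusted p 0.0682), and 0.87 without OF 2258, where its unadjusted p in limma was 0.0188. These sizes belong to the same OF animals as in the comparison with YF. ADAMTS5 levels in the Contemporary cows were -0.51, -0.75 and -1.06, 0.63 ± 0.23 above OF. MMP19 levels were 1.93, 1.66 and 1.10, 0.74 ± 0.29 above OF, and those of MMP2 lay 0.58 ± 0.25 above OF. Without OF 2258 the MMP19 difference was 0.63, and its call was lost (limma, unadjusted p 0.0698). The MMP2 difference was then 0.70, and its groups no longer overlapped. With Contemporary 1111 included, the differences were 2.12 for ADAMDEC1, 0.48 for ADAMTS5, 0.50 for MMP19 and 0.46 for MMP2, and the unadjusted p of the last 3 no longer passed 0.05.

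ADAM23 levels in the Contemporary cows were -6.37, -6.08 and -6.57, 0.74 ± 0.18 above OF, the smallest unadjusted p of any member (0.00420, adjusted p 0.881). This gene is dim, and with the background corrected by normexp on the mean spot intensity the difference was -0.032, so its direction is not settled. MMP24, also dim, was well above background in 4 OF but in only 1 of the 3 Contemporary cows, so its place among the genes without overlap rests on levels not well above background. Its 2 probes differed more than those of any other tested member in the comparison of OF with YF (by 0.78 on the log2 scale).

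Against YF, limma passed 0 of 42 members at an adjusted p of 0.05 (0% of all 19993 transcripts tested) and 1 at an unadjusted p of 0.05 (2.38%, against 3.03% of all transcripts, 1.29% higher and 1.74% lower), which was ADAM7, an epididymal ADAM. Its levels were -7.03, -6.68, -6.71 and -7.16 in YF and -6.49, -5.94 and -6.57 in Contemporary cows, and the log2 difference of 0.56 ± 0.22 was 0.041 with normexp and 0.36 without Contemporary 1128. Groups did not overlap for ADAM7 and, in the other direction, for ADAMTS9 (2 of 42, or 4.76%, against 3.83% of all transcripts, 1.51% higher and 2.32% lower). ADAMTS9 levels in the Contemporary cows were -3.65, -3.32 and -3.41, all below the YF, and the difference was -0.86 ± 0.38 (-0.50 without YF 1069). ADAMDEC1 differed by 0.68 ± 0.53 between Contemporary cows and YF, and by 0.096 without Contemporary 1128. The median difference of the members was 0.05 in both Contemporary comparisons, against -0.02 (YF) and -0.04 (OF) over all transcripts.

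Genes that activate, inhibit or serve these enzymes were read from lists. Of 20 activators, inhibitors and clearance genes (RECK, the plasminogen activators and their inhibitors, furin-type proteases and others), 16 were tested in each comparison, and in limma 0 passed an adjusted p of 0.05 or an unadjusted p of 0.05 in any of the 3. Of all transcripts, 2.41% (OF against YF), 3.03% (Contemporary against YF) and 4.58% (Contemporary against OF) passed the unadjusted p. Of 9 partners of ADAM10 and ADAM17 (iRhoms and tetraspanins), 0 passed an adjusted p of 0.05, and at an unadjusted p of 0.05 only RHBDF1, which carries ADAM17 to the cell surface, was called. It was 0.48 ± 0.20 higher in Contemporary cows than in OF (limma, unadjusted p 0.0463, adjusted p 0.911). Of the substrates on the list, 14 were named on the array and 11 tested between OF and YF, and 0 passed an adjusted p of 0.05. BCAN (brevican), a proteoglycan cut by ADAMTS4 and ADAMTS5, was the only one of these 11 at an unadjusted p of 0.05, and it was lower in OF. Its levels were -5.42, -6.12, -6.22 and -5.72 in YF and -7.10, -7.57, -7.01 and -8.34 in OF. It was well above background in 4 YF but in only 1 of the 4 OF and entered the test through YF, so no size or order is read from its OF levels. POFUT2, which adds fucose to the thrombospondin repeats of ADAMTS proteins, differed between OF and YF by -0.09.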

How the data were processed

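The authors deposited Feature Extraction 10.7.3.1 output of 12 arrays on 2 slides, with the processed Cy-3 intensity of each spot, not normalized between arrays. Control spots (1319 per array) and 66 flagged probes were left out. Log2 intensity minus the array's 75th percentile was averaged over the probes of a transcript. Groups were compared in pairs with limma 3.58.1 in R 4.3.3 (two-sided, Benjamini-Hochberg). A transcript was tested if 1 of its probes exceeded background on all arrays of either group. FCROS was recoded (16 ratios, trim 0.25, f-values beyond 0.025 or 0.975, ratio of 1.5) for all transcripts. Both were tested on simulated data. Exact permutation tests over animals used SciPy 1.17.1. The members and lists were chosen with earlier results of these data known.

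Values per animal follow a rule: the TIMPs, members at an unadjusted p of 0.05 without overlap of the groups, FCROS calls tested by limma, and the member with the highest mean signal of each class. ADAM10, ADAM12, ADAM19, ADAM28, ADAM33, ADAMTS8, ADAMTS9, MMP7, MMP9, MMP14, MMP15, MMP24 and the other dim FCROS calls were described after their values were seen. Replicates are animals, and their number limits the precision. Alternatives were other normalizations and background corrections, the brightest probe, no filter, the slide, 1 fit of all groups, array weights, FCROS settings, animal 1111 and each animal left out. MMP10, MMP12, MMP21, MMP26 and MMP28 were not analysed here.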

Additional observations from a re-analysis of the deposited data

Results flagged for a closer look

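In groups of 4 animals, an animal was marked where its gap to the nearest other animal took more of the group's range than Dixon's 95% critical value. Of 58 groups examined over 29 named transcripts, 4 were marked, where chance marks about 1 in 20 groups not chosen by their values. Some of the 29, among them ADAM19, were picked after their values were seen, so that rate does not apply to them. Other members described above, such as ADAM10, ADAM28, ADAMTS8, MMP7 and MMP15, were not examined. YF 1069 was marked for ADAM23 (gap of 0.932 of the range) and ADAM22 (0.926), both above the other YF. OF 2258 was marked above the other OF for ADAMTS1 (0.902). YF 1127 was marked below the other YF for ADAM19 (0.867).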

How the results depend on the processing

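Across all settings, 0 members passed an adjusted p of 0.05 in any comparison. The share of all transcripts stands in brackets after each count. For OF against YF, members at an unadjusted p of 0.05 numbered 4 with no filter on dim probes (2.58%), 0 with the slide as a block (3.88%), 3 with all groups in 1 fit (2.6%), 3 with array weights (11%), and 0 to 3 with an animal left out (1.95% to 4.85%), with 0 without OF 2258, YF 1069, YF 1070 or YF 1072. Members whose groups did not overlap numbered 0 with median centring (1.63%), 0 with normexp (2.47%), 3 with no filter (1.55%), 3 on slide 2 (14%), and 1 to 4 with an animal left out (2.88% to 5.81%). FCROS called 4 members with dim probes left out (4.78%), and 7 to 12 with an animal left out (4.52% to 5.90%). For Contemporary against YF, the counts at an unadjusted p were 0 (2.23%) with normexp, 3 (2.90%) with no filter, 4 (3.64%) with the slide as a block, 2 (2.77%) in 1 fit, 4 (6.56%) with array weights, 2 (3.44%) with 1111 included and 1 to 4 (2.43% to 4.87%) with an animal left out. Without overlap they were 1 (2.84%) with normexp, 0 (3.88%) with the brightest probe, 4 (3.57%) with no filter, 6 (16.5%) on slide 2 and 2 to 6 (5.68% to 13.2%) with an animal left out. For Contemporary against OF, the counts at an unadjusted p were 7 (16.4%) with array weights, 7 (4.48%) with the brightest probe and 6 (4.49%) with no filter. They were 2 (5.31%) with the slide as a block, which here gives the same result as slide 2 alone, and 2 (5.42%) in 1 fit. With 1111 included the count was 3 (5.36%), and with an animal left out 2 to 6 (3.30% to 8.52%). Without overlap they were 6 (5.88%) with the brightest probe, 6 (5.58%) with no filter and 7 (12.1%) on slide 2. They were 3 (4.97%) with normexp, 3 (3.43%) with 1111 included and 5 to 10 (7.97% to 22%) with an animal left out. The median difference of the members in that comparison was -0.081 with normexp and -0.10 with no filter. Left-out animals moved it from -0.03 to 0.08, the median for Contemporary against YF from -0.10 to 0.12 and that for OF against YF from -0.10 to 0.02.

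Single differences that changed sign between OF and YF were ADAM19 (-0.74), ADAM33 (-0.40), ADAMTSL4 (-0.28), TIMP1 (-0.17), TIMP2 (0.13), TIMP3 (-0.36) and TIMP4 (-0.092) within slide 1, a setting added after the data were seen that holds 1 OF, whose spread is assumed to be that of the YF. TIMP2 also changed sign with the slide as a block (0.062) and on slide 2 (0.025), and ADAM23 with normexp between Contemporary and OF (-0.032). With an animal left out, TIMP1 ranged from -0.044 (without OF 2258) to 0.40, TIMP2 from -0.57 to 0.21 (without OF 2258), TIMP3 from -0.059 (without OF 2258) to 0.38, TIMP4 from -0.011 (without YF 1072) to 0.27 and ADAM33 from -0.0985 (without OF 2258) to 1.06. The cause was not tested. No paired analysis was possible because the labels give no replicate number shared between the groups. Members near background, 31 of 70 transcripts on at least 1 array, limit what can be measured.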
